A study of Homo sapiens with 3 samples.

Results

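Heat shock chaperones bind unfolded proteins and let them fold, reach their organelle or be degraded. HSP70 proteins take up client proteins in an ATP cycle that J proteins start and that HSP110 and BAG proteins help to end by nucleotide exchange, while HSP90 with its co-chaperones finishes kinases and steroid receptors. The CCT chaperonin, fed by prefoldin, folds actin and tubulin, and HSPD1 with its lid HSPE1 folds proteins inside mitochondria. The transcription factor HSF1 drives many of these genes in heat shock by binding inverted repeats of the bases GAA, called heat shock elements.

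The set described here is 55 genes of the cytosolic and mitochondrial chaperone system, chosen by gene name out of 50868 genes listed. They fall into 11 groups by role. HGC-27, an established human line from an undifferentiated gastric carcinoma, was transfected at passage 6 for 48 h with siRNA of 3 kinds (a control, one targeting IRF3, one targeting YAP), with 1 RNA sequencing library for each. IRF3 is a transcription factor of the antiviral response, and YAP is the coactivator at the end of the Hippo pathway. The cells are otherwise the same in all groups, and no genotype beyond the siRNA is given in the labels. With 1 library per group, no difference below has a replicate check or a p-value.

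Libraries held 13949401 (control), 14941556 (IRF3 siRNA) and 14385959 (YAP siRNA) gene counts. YAP1 had 861, 561 and 337 counts in this order, a count ratio to control of 0.380 in its own knockdown (95% counting interval 0.334 to 0.431). IRF3 had 681, 597 and 764 counts, a ratio of 0.818 (0.732 to 0.915) in its own knockdown. It shares exon bases with BCL2L12 on the opposite strand, and with overlapping genes summed its log2 ratio was -0.02, so the counts check this label only weakly. YAP1 was also lower in the IRF3 siRNA library, with a count ratio of 0.608 (0.546 to 0.677). Of 8 epithelial marker genes none reached a mean of 1 FPKM, and their summed level was 1.15, 0.918 and 1.18 FPKM. Of 5 mesenchymal markers 3 reached it (VIM, SPARC and FN1), while CDH2 and ZEB1 did not. Vimentin (VIM) stood at 511, 451 and 469 FPKM. Leukocyte markers (0 of 4 at a mean of 1 FPKM) and endothelial markers (0 of 3) were near 0, while 2 of 3 erythroid markers (HBA1 and HBB) passed 1 FPKM, and their part in any chaperone value was not tested.

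The heat shock elements themselves are shown first, because by textbook knowledge they are the sequence through which HSF1 acts on heat-inducible chaperone genes. RefSeq promoter windows on GRCh38.p14, from 250 bases before to 50 bases after a gene's start, were at hand for 47 of the 55 genes, in 65 windows. The 3-unit element was searched as GAANNTTCNNGAA on both strands (the other strand reads TTCNNGAANNTTC, and either form contains both shorter forms GAANNTTC and TTCNNGAA). It was found in 6 of the 65 chaperone windows (9.23%) and in 172 of 35116 windows of all genes (0.490%). The 2-unit form GAANNTTC was found in 19 chaperone windows (29.2%) and in 6.77% of all windows, and the 2-unit form TTCNNGAA in 11 (16.9%) and in 7.74% of all windows. Of 26 chaperone windows of genes on the heat-inducible list described further below, 5 held the 3-unit element, 10 GAANNTTC and 7 TTCNNGAA. Of the 39 other chaperone windows 1, 9 and 4 did. Most windows of the listed genes thus lacked each form. The genes with the 3-unit match were HSP90AA1, HSP90AB1, HSPA8, HSPD1, DNAJB6 and, just after its start, DNAJA1. The 5 genes with a match before a start are printed below in the sense of the gene, 5′ to 3′, with the matched letters in capitals. DNAJB6 is given with 60 bases and the others with 30 bases around a match; those of HSP90AA1, HSPA8 and HSPD1 lie wholly within exons of GENCODE release 29. Positions are counted from the start, with negative numbers before it. A further 3-unit match, outside the bases printed, lies at -230 to -218 for HSPA8 and at -165 to -153 for HSP90AB1. RefSeq lists more than 1 start for several of these genes, and the printed match lies before only 1 of them. From the other HSPD1 start it lies at 194 to 206 after the start, from the other HSP90AA1 start at 52617 to 52629, and from the other HSP90AB1 starts at 1637 to 1649 and at 730 to 742.
HSP90AA1 (chr14:102087112-102087141, minus strand, match at -88 to -76): ggagggttcTTCCGGAAGGTTCgggaggct
HSP90AB1 (chr6:44247822-44247851, plus strand, match at -112 to -100): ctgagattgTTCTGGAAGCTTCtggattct
HSPA8 (chr11:123062171-123062200, minus strand, match at -55 to -43): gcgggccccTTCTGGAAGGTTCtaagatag
HSPD1 (chr2:197500060-197500089, minus strand, 2 overlapping matches, the nearer at -240 to -228): cattTTCTGGAAAGTTCTGGAAccgagcga
DNAJB6 (chr7:157336849-157336908, plus strand, match at -131 to -119): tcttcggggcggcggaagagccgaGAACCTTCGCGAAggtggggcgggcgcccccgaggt

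These 6 genes had no common direction. On the log2 scale of FPKM plus 1, their ratios to control with IRF3 siRNA were 0.09 for HSP90AA1, -0.22 for HSP90AB1, 0.60 for HSPA8, -0.18 for HSPD1, -0.20 for DNAJB6 and -0.03 for DNAJA1. With YAP siRNA they were 0.22, -0.18, 0.20, -0.23, -0.20 and 0.02 in the same order. A match of letters is a description of the window and shows no binding.

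HSPA1A and HSPA1B, the stress-inducible HSP70 genes, lie next to each other on chromosome 6 and carry a 2-unit element each. Their windows are shown because they make plain how alike these copies are.
HSPA1A (chr6:31815426-31815455, plus strand, match at -106 to -99): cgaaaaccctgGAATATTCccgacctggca
HSPA1B (chr6:31827622-31827651, plus strand, match at -105 to -98): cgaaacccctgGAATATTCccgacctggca
The printed stretches were the same at 29 of 30 bases, and with an offset of 1 base the promoters were the same at 235 of 249 bases. The transcripts are near-identical as well, so the counts of both genes are uncertain singly.

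Of the 55 genes, 51 had a mean of at least 1 FPKM over the 3 libraries and entered the ratios beside 11103 genes of the whole table. HSPA1A, HSPA2, DNAJA4 and DNAJC2 did not reach it. None of the 51 was past 2-fold in any comparison. Of all genes, 0.387% were higher and 0.612% lower past 2-fold with IRF3 siRNA, and 0.351% and 0.468% with YAP siRNA. In the direct comparison of IRF3 with YAP siRNA these were 0.297% and 0.315%. Past 1.5-fold, 1 chaperone was higher (HSPA8) and 2 were lower (HSPA4 and HSPH1) with IRF3 siRNA, against 1.59% and 5.88% of all genes. With YAP siRNA 1 was higher (STUB1) and 0 were lower, against 1.59% and 4.64%. In the direct comparison 0 were higher and 0 lower past 1.5-fold, against 1.18% and 1.28%. Shares of 1 or 2 in 51 are close to these backgrounds.

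The median chaperone ratio was 0.01 with IRF3 siRNA, where all genes had -0.03, and 0.06 with YAP siRNA, where all genes had -0.02. In the direct comparison it was -0.04 beside -0.01. Ratios were above 0 for 26 of 51 chaperones with IRF3 siRNA (46.1% of all genes) and for 30 of 51 with YAP siRNA (46.5%), and TMM scaling made these 30 (57.0% of all genes so scaled) and 39 (56.8%), while it moved the median of all genes by 0.09 and 0.08. In the direct comparison 20 of 51 were above 0, beside 48.2% of all genes, and 21 of 51 with TMM scaling, beside 50.6%. Chaperone genes are highly expressed: 23 of the 51 had a mean of at least 29.97 FPKM, and all genes from that level up had medians of 0.15 and 0.14. Both ratios to control lay within 0.3 of 0, a bound not set in the design, for 41 of 51 chaperones (80.4%) and for 60.9% of all genes. The comparisons with control share 1 control library.

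**Figure D1:**
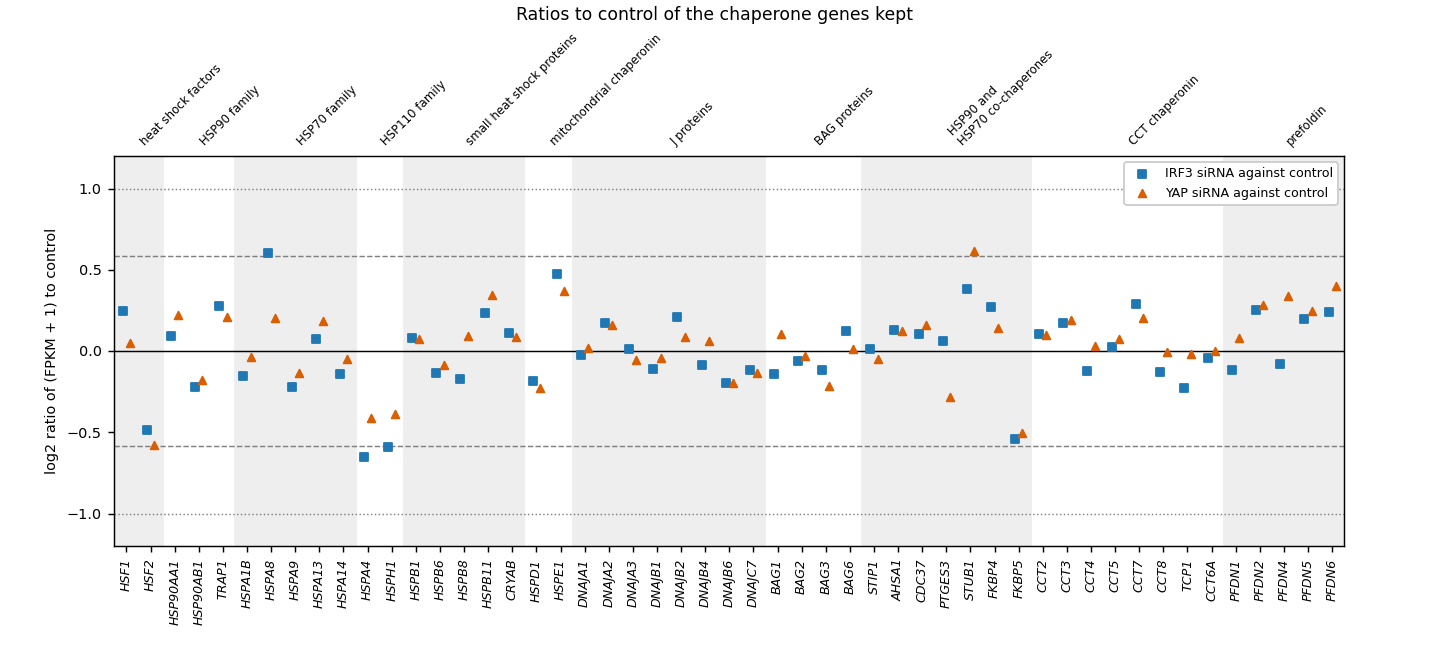
Log2 ratios of FPKM plus 1 to control for the 51 chaperone genes kept, ordered by role, with IRF3 siRNA as squares and YAP siRNA as triangles. Dashed lines mark 1.5-fold and dotted lines 2-fold; no point passes 2-fold, and HSPA8, HSPA4, HSPH1 and STUB1 pass 1.5-fold in 1 comparison each.

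Levels can be compared between genes only per length, and here the authors' length needed care. The gene length implied by the deposited FPKM and counts was within 1% of the summed length of all distinct annotated exons, overlapping ones included, for 50 of the 55 chaperones and for 86.8% of 10673 genes with over 100 control counts. For 8 chaperones that length exceeded the whole gene, introns included. The length taken for HSPA8 was 14.1 kb although its gene spans 5.74 kb, and that for PFDN5 was 8.66 kb in a gene of 4.16 kb. The median gene was taken as 1.56 times its merged exon length, and the median chaperone as 1.65 times. Ratios of the same gene between libraries are not touched by this except through the pseudocount of 1, but levels of genes with many isoforms are mostly understated. Levels below are therefore given as counts scaled to library total and to kilobases of merged exon, as FPKM is but with overlapping exons taken once, called the merged-exon level.

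**Figure D2:**
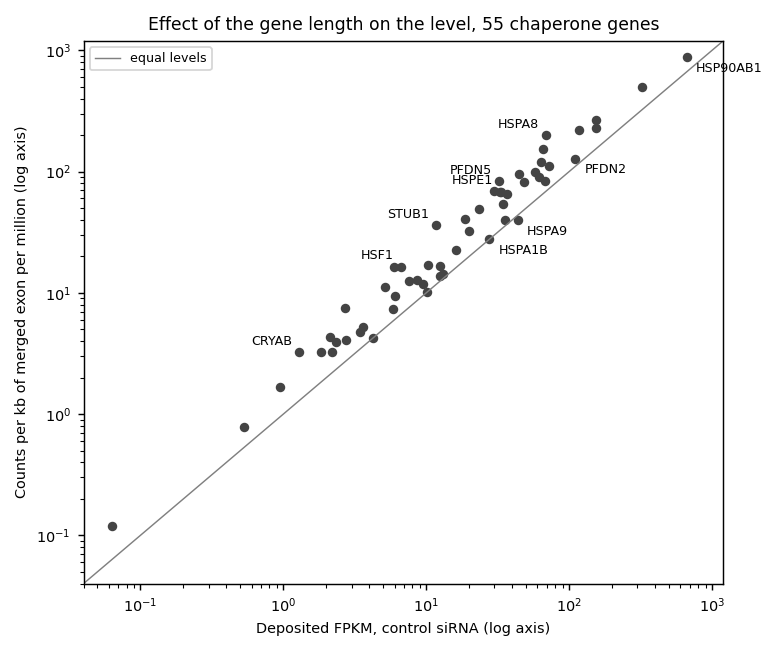
Merged-exon level against deposited FPKM for the 55 chaperone genes in the control library, both axes logarithmic, with the line of equal levels. HSPA8 stands at 68.4 FPKM but at 199 by merged exons, whereas HSPA1B, with a single annotated transcript, lies on the line at 27.6.

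By merged-exon level the order in the control library ran from HSP90AB1 at 875 over HSPB1 at 495, CCT7 at 266, CCT4 at 227, CCT3 at 221 and HSPA8 at 199 down to DNAJC2 at 0.775 and DNAJA4 at 0.120. CCT4 and CCT3 are too close to be ordered without replicates. All 55 genes together took 1.43% of counts in the control (exact binomial 95% interval 1.424% to 1.436%), 1.497% with IRF3 siRNA (1.491% to 1.503%) and 1.47% with YAP siRNA (1.460% to 1.473%). Of the summed merged-exon level of all genes, the 55 held 1.23%, 1.22% and 1.20% (control, IRF3 siRNA, YAP siRNA). The control thus had the lowest share of counts but the highest share of level, so the direction turned with the measure. The binomial intervals, like all counting intervals here, cover counting error only.

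**Figure D3:**
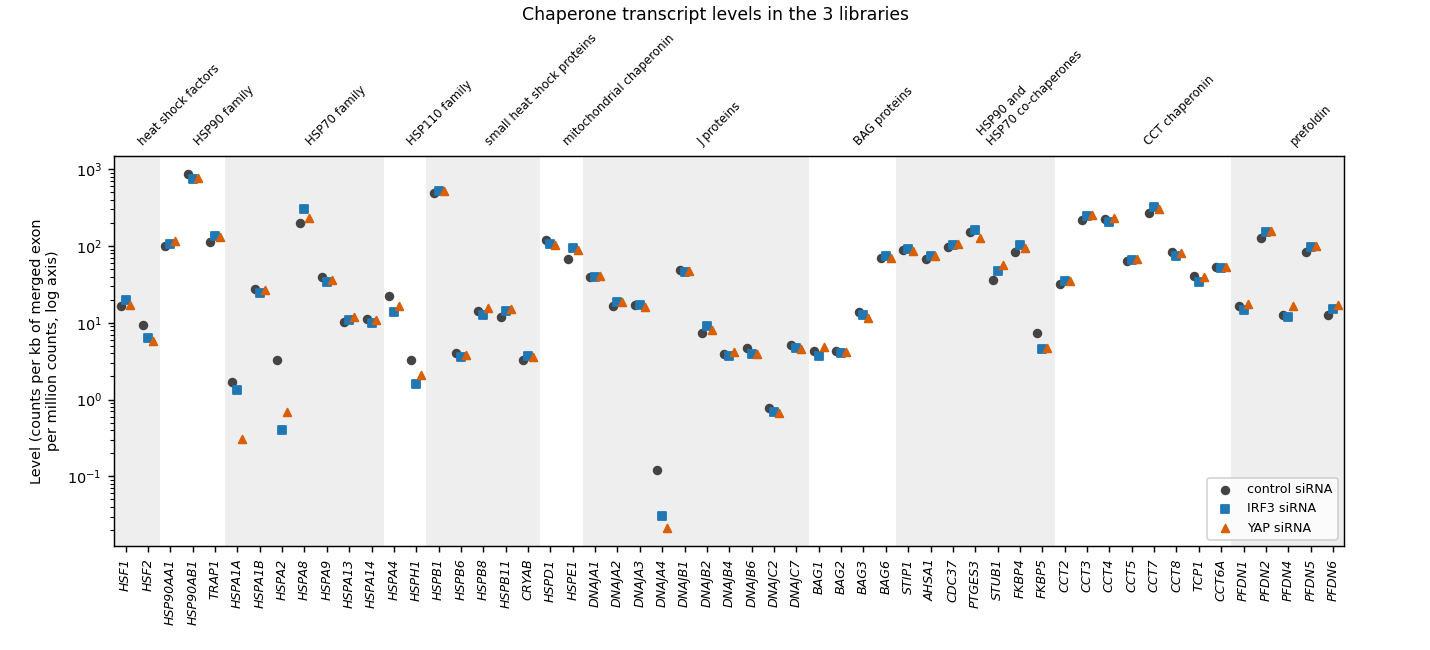
Merged-exon levels of all 55 chaperone genes in the 3 libraries on a log axis, ordered by role. The symbols of a gene mostly overlap; HSPA2, HSPA1A and DNAJA4 show the widest gaps, from at most 263, 58 and 11 counts.

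The heat shock factors differed in direction. HSF2, which can form mixed trimers with HSF1, stood at 6.06, 4.05 and 3.73 FPKM, in the order control, IRF3 siRNA, YAP siRNA here and below (chromosome 6, 122399546 to 122433119, hg38). Both knockdown libraries were below the control, with log2 ratios of -0.48 and -0.58 and count ratios of 0.668 (0.566 to 0.786) and 0.615 (0.518 to 0.728). The log2 ratios were short of 1.5-fold on the scale with the pseudocount. HSF1, the master regulator, stood at 6.67, 8.11 and 6.94 FPKM (chromosome 8, 144291591 to 144314722). Its count ratio was 1.22 (1.13 to 1.31) with IRF3 siRNA and 1.04 (0.962 to 1.13) with YAP siRNA, and 1.17 (1.09 to 1.26) between the knockdowns.

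Among the HSP90 genes, the constitutive HSP90AB1 was the most abundant chaperone transcript in every library, at 665, 569 and 588 FPKM (chromosome 6, 44246166 to 44253888). It was lower in both knockdowns, with count ratios of 0.856 (0.843 to 0.869) with IRF3 siRNA and 0.884 (0.871 to 0.897) with YAP siRNA. The inducible HSP90AA1 stood at 57.8, 61.6 and 67.4 FPKM, ratios of 1.07 (1.03 to 1.10) and 1.17 (1.13 to 1.20). By merged-exon level HSP90AB1 exceeded HSP90AA1 8.86-fold in the control, 7.12-fold with IRF3 siRNA and 6.72-fold with YAP siRNA. TRAP1, the mitochondrial HSP90, stood at 72.7, 88.2 and 84.2 FPKM, with log2 ratios of 0.27 and 0.21. It shares 29.3% of its merged exon bases with DNASE1 on the opposite strand, which had 280 to 303 counts against 8137 or more for TRAP1.

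The HSP70 family held both the highest chaperone ratio with IRF3 siRNA and the lowest count ratio among members with over 100 control counts. HSPA8, the constitutive HSC70, stood at 68.4, 104 and 79.0 FPKM, from 13483, 22012 and 16059 counts (chromosome 11, 123057489 to 123063230). The IRF3 siRNA library stood apart: its count ratio to control was 1.52 (1.49 to 1.56), and that to YAP siRNA was 1.32 (1.29 to 1.35). After spline trends in GC content, exon length and level were subtracted (the trend-removed value), its log2 ratio was 0.66.

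HSPA2, an HSP70 best known from the testis, missed the filter with a mean of 0.972 FPKM. It had 263, 35 and 57 counts (2.19, 0.272 and 0.459 FPKM; chromosome 14, 64535905 to 64546173). The control was far above both knockdowns, with count ratios of 0.124 (0.0847 to 0.177) and 0.210 (0.155 to 0.281), and no counted gene overlaps its exons. On the scale of FPKM plus 1 its log2 ratios were -1.33 and -1.13. Between the knockdowns the count ratio was 0.591 (0.377 to 0.916).

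For HSPA1A there were 58, 49 and 11 counts (0.947, 0.747 and 0.174 FPKM), and for HSPA1B 972, 930 and 975. The low value of HSPA1A with YAP siRNA was thus not shared by its copy. With both genes summed, the ratios were 0.887 (0.812 to 0.969) with IRF3 siRNA and 0.928 (0.850 to 1.014) with YAP siRNA. HSPA9, the mitochondrial HSP70, stood at 44.0, 37.5 and 39.99 FPKM, with log2 ratios of -0.22 and -0.13. HSPA13, an HSP70-like protein of microsomes, had 0.07 and 0.18, and HSPA14, which works at the ribosome with DNAJC2, had -0.14 and -0.05.

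Both HSP110 genes, the exchange factors of HSP70, were lower in both knockdowns. HSPA4 stood at 16.3, 9.97 and 12.0 FPKM (chromosome 5, 133051962 to 133106449). HSPH1 stood at 1.84, 0.885 and 1.17 FPKM, from 384, 198 and 252 counts (chromosome 13, 31134974 to 31162388). In each gene the control was highest and IRF3 siRNA lowest. Log2 ratios were -0.65 and -0.41 for HSPA4, and -0.59 and -0.39 for HSPH1. Count ratios were 0.613 (0.567 to 0.663) and 0.736 (0.683 to 0.793) for HSPA4, and 0.481 (0.403 to 0.573) and 0.636 (0.541 to 0.748) for HSPH1. The related HSPA4L, from the list of other network genes, had count ratios of 0.667 (0.553 to 0.802) and 0.717 (0.596 to 0.861). As trend-removed values, HSPA4 had -0.49 and -0.30 and HSPH1 -0.27 and -0.11, all under 1.5-fold, and HSPA4L had 0.02 and 0.04, no longer below control.

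**Figure D4:**
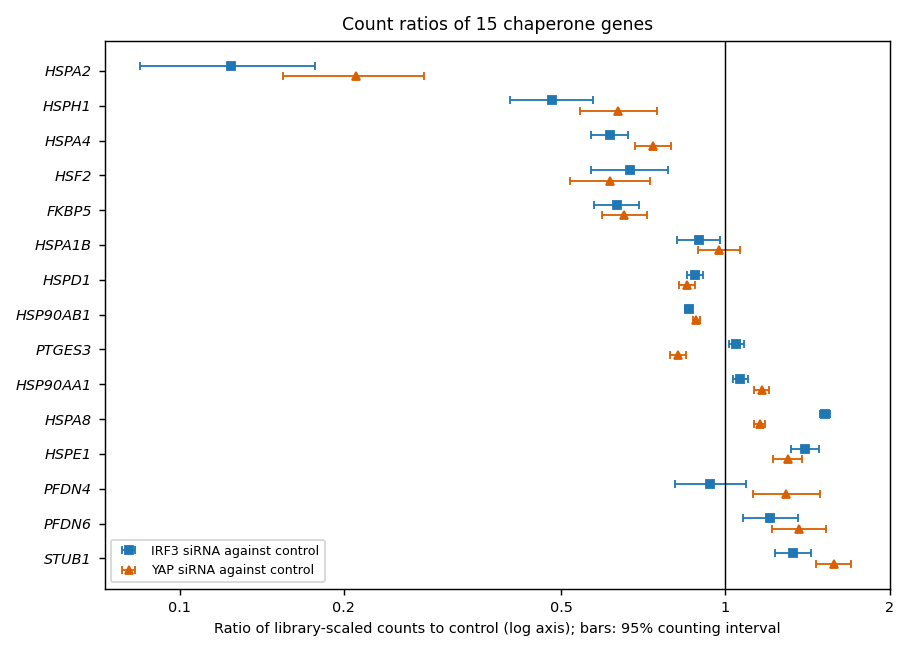
Count ratios to control of 15 chaperone genes on a log axis, IRF3 siRNA as squares and YAP siRNA as triangles, with 95% counting intervals as bars. HSPA2 lies far to the left at 0.124 and 0.210, HSPH1, HSPA4, HSF2 and FKBP5 lie left of 1 in both knockdowns, and HSPA8, HSPE1 and STUB1 lie right of it.

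Small heat shock proteins hold unfolded proteins without ATP. HSPB1, the main member here, stood at 321, 340 and 338 FPKM, count ratios of 1.06 (1.03 to 1.09) and 1.05 (1.03 to 1.08), but as trend-removed values its log2 ratios turned to -0.20 and -0.16. CRYAB (1.29, 1.47 and 1.43 FPKM), HSPB6 (2.74, 2.40 and 2.52) and HSPB8 (13.1, 11.5 and 14.1) differed from control by at most 0.17 on the log2 scale. CRYAB shares exons with HSPB2 and HSPB6 with AC002398.12, on the opposite strand. HSPB11, a subunit of intraflagellar transport that carries the family name, stood at 9.51, 11.4 and 12.4 FPKM, with log2 ratios of 0.24 and 0.35.

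The mitochondrial chaperonin genes lay on opposite sides of control. By RefSeq starts they lie head to head on chromosome 2 (197500274 or 197499840 for HSPD1, minus strand, and 197500379 for HSPE1, plus strand). By the whole spans given next, HSPE1 lies within HSPD1. HSPD1 stood at 64.0, 56.3 and 54.4 FPKM (197486581 to 197516737), and HSPE1 at 32.9, 46.1 and 42.8 FPKM (197499994 to 197503457). Count ratios were 0.879 (0.850 to 0.908) and 0.850 (0.822 to 0.880) for HSPD1, and 1.40 (1.32 to 1.48) and 1.30 (1.22 to 1.38) for HSPE1. The merged-exon level of HSPD1 was 1.77 times that of HSPE1 in the control, 1.11 times with IRF3 siRNA and 1.16 times with YAP siRNA. The genes share 281 exon bases on opposite strands, 14.2% of the merged exons of HSPE1, and the counts come with no stated strand setting, so reads from that stretch cannot be assigned. With all overlapping genes summed, log2 ratios were -0.02 and -0.08 for either gene. Each then takes in the whole count of the other. The 5 mitochondrial members together had medians of 0.01 and -0.06, with DNAJA3, a mitochondrial J protein, at 0.01 and -0.06.

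J proteins, which deliver clients to HSP70 and trigger its ATP hydrolysis, differed little from control. Log2 ratios of the 8 kept ran from -0.20 to 0.21 with IRF3 siRNA and from -0.20 to 0.16 with YAP siRNA. Both ratios lay within 0.3 of 0 for 80.4% of the 51 chaperones and for 60.9% of all genes. No J protein was past 1.5-fold, against 1.59% higher and 5.88% lower among all genes with IRF3 siRNA, and 1.59% and 4.64% with YAP siRNA. DNAJA1 stood at 35.7, 34.96 and 36.2 FPKM, and the heat-inducible DNAJB1 at 23.4, 21.6 and 22.8 FPKM. DNAJB2, a J protein with ubiquitin-binding motifs, stood at 2.72, 3.31 and 2.94 FPKM, and DNAJA2 at 12.4, 14.1 and 14.0 FPKM. Their log2 ratios were 0.21 and 0.08, and 0.17 and 0.16. DNAJB6, a suppressor of aggregation, stood at 3.42, 2.85 and 2.85 FPKM, ratios of -0.20 and -0.20. DNAJC7, which has TPR domains, stood at 3.63, 3.27 and 3.21 FPKM, and DNAJB4 at 2.35, 2.16 and 2.50. Below the filter, DNAJC2 had 71, 68 and 63 counts, and DNAJA4 had 11, 3 and 2 counts, ratios of 0.255 (0.0456 to 0.964) and 0.176 (0.0190 to 0.808) that this depth leaves wide.

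BAG proteins release clients from HSP70. BAG6, which guards membrane proteins in the cytosol, stood at 29.7, 32.3 and 29.9 FPKM, and BAG3, a heat-inducible factor of selective autophagy, at 12.5, 11.5 and 10.7 FPKM. BAG2, an inhibitor of the ligase STUB1, stood at 4.25, 4.04 and 4.13 FPKM. BAG1 stood at 2.13, 1.84 and 2.36 FPKM, and its count ratio between the knockdowns was 0.780 (0.681 to 0.892).

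Co-chaperones of HSP90 and HSP70 lay on both sides of control. STUB1, the ubiquitin ligase CHIP that marks HSP70 clients for degradation, stood at 11.7, 15.5 and 18.4 FPKM (chromosome 16, 680224 to 682870). Both knockdowns were above control, with count ratios of 1.33 (1.23 to 1.43) and 1.58 (1.47 to 1.699). STUB1 shares 42.4% of its merged exon bases with JMJD8 on the opposite strand, which had 640, 900 and 721 counts beside 1163, 1654 and 1893 for STUB1. Summed, the log2 ratios were 0.38 and 0.47, and the value with YAP siRNA was then under 1.5-fold.

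FKBP5, the glucocorticoid-inducible immunophilin FKBP51, stood at 5.82, 3.68 and 3.80 FPKM (chromosome 6, 35573585 to 35728583). Both knockdowns were below control, with count ratios of 0.632 (0.575 to 0.695) and 0.653 (0.594 to 0.718). Its relative FKBP4, also called FKBP52, went the other way at 67.9, 82.1 and 75.0 FPKM, ratios of 1.21 (1.17 to 1.25) and 1.10 (1.07 to 1.14). By merged-exon level FKBP4 exceeded FKBP5 11.6-fold in the control, 22.1-fold with IRF3 siRNA and 19.6-fold with YAP siRNA. As trend-removed values, FKBP5 had -0.21 and -0.22 in place of -0.54 and -0.51.

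PTGES3, the p23 protein that locks HSP90 in its ATP-bound state, stood at 65.3, 68.3 and 53.6 FPKM, so YAP siRNA was the low library. Between the knockdowns the count ratio was 1.28 (1.23 to 1.32). STIP1, which bridges HSP70 and HSP90, stood at 61.3, 61.7 and 59.2 FPKM, the kinase loader CDC37 at 44.9, 48.3 and 50.3 FPKM, and AHSA1, the activator of the HSP90 ATPase, at 33.3, 36.6 and 36.4 FPKM. None of these 3 differed from control by more than 0.16 on the log2 scale.

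The CCT ring holds 8 different subunits, yet their transcripts differed widely in level. In the control the merged-exon level ran from 32.4 for CCT2 to 266 for CCT7, an 8.20-fold range, with a median of 73.6. The range was 9.52-fold with IRF3 siRNA, where TCP1 was the lowest at 34.2, and 8.81-fold with YAP siRNA. Differences between libraries were far smaller: log2 ratios ran from -0.23 for TCP1 to 0.29 for CCT7 with IRF3 siRNA and from -0.02 for TCP1 to 0.20 for CCT7 with YAP siRNA. CCT7 stood at 153, 187 and 177 FPKM, CCT3 at 118, 133 and 135, and CCT4 at 154, 142 and 158. CCT8 (48.1, 43.8 and 47.9 FPKM) and TCP1 (18.7, 15.8 and 18.5 FPKM) were lowest with IRF3 siRNA. CCT2, CCT5 and CCT6A were at most 0.10 from 0 in both knockdowns. With IRF3 siRNA 4 of 8 were above 0 (46.1% of all genes), and 5 of 8 with TMM scaling (57.0%). With YAP siRNA 5 of 8 were above 0 (46.5% of all genes), which became 8 of 8 with TMM scaling, where 56.8% of all genes were above 0. As trend-removed values, 5 of 8 were above 0 with IRF3 siRNA and 6 of 8 with YAP siRNA. The CCT medians without TMM scaling were -0.01 and 0.05. All genes with a mean of at least 29.97 FPKM, a level reached by each CCT gene but CCT2 and TCP1, had 0.15 and 0.14. TCP1 shares 8.05% of its merged exon bases with ACAT2 on the opposite strand, and its summed value with IRF3 siRNA was -0.07.

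Prefoldin hands new actin and tubulin chains to CCT. With YAP siRNA all 5 listed subunits had ratios above 0, beside 46.5% of all genes. All 5 were also above 0 with TMM scaling (56.8% of all genes), with the trend removed and with overlapping genes summed. Ratios ran from 0.08 for PFDN1 to 0.40 for PFDN6, with a median of 0.28. With IRF3 siRNA 3 of 5 were above 0 (46.1% of all genes), and 4 of 5 with TMM scaling (57.0%). In the direct comparison 0 of 5 were above 0 (48.2% of all genes), and 1 of 5 with overlapping genes summed (PFDN6). None passed 1.5-fold. PFDN6 stood at 7.58, 9.15 and 10.3 FPKM, a count ratio of 1.36 (1.22 to 1.53) with YAP siRNA, and shares 24.5% of its merged exon bases with RGL2 on the opposite strand. PFDN4 stood at 8.68, 8.15 and 11.2 FPKM, so that YAP siRNA was above both other libraries, and its count ratio between the knockdowns was 0.727 (0.631 to 0.836). PFDN2 stood at 110, 132 and 134 FPKM and PFDN5 at 32.5, 37.4 and 38.8, above control in both knockdowns. PFDN1 stood at 5.93, 5.39 and 6.34 FPKM. VBP1, a further prefoldin subunit from the list of other network genes, stood at 12.1, 14.96 and 15.99 FPKM.

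The wider network was read from a list of 91 further chaperones and partners, of which 65 passed the filter. With IRF3 siRNA 1 was higher and 0 were lower past 2-fold, against 0.387% and 0.612% of all genes. Past 1.5-fold 2 were higher and 1 lower, against 1.59% and 5.88%. The median was 0.11, where all genes had -0.03. With YAP siRNA these counts were 1 and 0 (0.351% and 0.468% of all genes), and 2 and 1 (1.59% and 4.64%). The median was 0.10, where all genes had -0.02. NUDCD3, an HSP90 partner that stabilises dynein intermediate chains, was the gene past 2-fold, at 4.65, 12.4 and 11.6 FPKM. DNAJC9, a J protein that also binds histones, stood at 4.95, 9.37 and 8.81 FPKM and overlaps FAM149B1 on the opposite strand. With overlapping genes summed its log2 ratio with IRF3 siRNA was 0.53, under 1.5-fold, in place of 0.80, with YAP siRNA 0.95 in place of 0.72, and in the direct comparison -0.42 in place of 0.08. DNAJC8, a J protein of the nucleus, stood at 17.1, 9.33 and 11.1 FPKM, log2 ratios of -0.81 and -0.59. DNAJC22, a J protein of membranes, stood at 4.92, 4.52 and 7.15 FPKM, the tubulin cofactor TBCE at 10.3, 7.62 and 8.67, PIH1D1, of the R2TP complex, at 5.36, 7.24 and 6.97, and the mitochondrial protease LONP1 at 40.5, 51.0 and 52.4. These and VBP1 were under 1.5-fold against control. LONP1 shares 43 exon bases with RPL36 and gave -0.0028 and 0.14 with overlapping genes summed, where all RPL36 counts were added.

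A list of 20 genes taken as heat-inducible HSF1 targets, most of them among the 55, had 18 members kept. The name holds only loosely, since the list includes HSPA8, described above as constitutive. With IRF3 siRNA HSPA8 had the highest ratio of the list (0.60) and HSPA4 the lowest (-0.65). In that comparison 9 members were above and 9 below 0, and with YAP siRNA likewise 9 and 9, where 46.1% and 46.5% of all genes were above 0. The median was -0.01 in each, beside 0.01 and 0.08 for the 33 chaperones kept outside that list. These medians moved with the setting. With TMM scaling they were 0.09 and 0.08, beside 0.12 and 0.18. As trend-removed values they were -0.05 and -0.11, beside 0.10 and 0.08.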

How the data were processed

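A single library per siRNA was analysed. The design had assumed FPKM alone, and FPKM stayed the main unit. The deposited table gives FPKM and raw counts per gene, per the file headers; alignment used TopHat2 2.0.9 on hg38, per the submitters' processing notes. The gene counter, strand setting and annotation were not given in the sources used here. Deposited by the authors, FPKM values equalled count over implied length and column total within 1% for 100% of 45223 values checked.

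Log2 ratios (pseudocount of 1 added to FPKM, so differences of low genes are understated) covered genes with a mean of at least 1 FPKM. Genes were called past 2-fold and past 1.5-fold. Count ratios are scaled to column totals, with a 95% exact (Clopper-Pearson) binomial interval of the counts of a pair of libraries. Counts range from 13949401 to 14941556 per library. PCR copies are not independent molecules, so intervals cover counting error only.

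Exon lengths, overlaps, GC content and gene class came from GENCODE release 29, and promoters from RefSeq (GRCh38.p14). The merged-exon level was added after seeing the data. In the trend-removed values, additive splines (4 degrees of freedom each) in level, merged exon length and GC content were subtracted. With overlapping genes summed, the whole count of every gene sharing exon bases was added, however few the bases. A partner with many counts can thus dominate a summed value. The members and lists were chosen with earlier results of these data known. Named genes were the 4 largest ratios per role group, all past 1.5-fold, HSF1 and HSF2, and 8 of the network list with a mean of at least 5 FPKM; further members, HSPA4L and the genes overlapping members were named after their values were seen. The counts served for TMM scaling in edgeR 4.0.16 (R 4.3.3), other steps in pandas 2.3.3, scipy 1.17.1, patsy 1.0.2 and numpy 2.4.6 under Python 3.11.15. The ratio, the calls and the intervals were tested on simulated data.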

Additional observations from a re-analysis of the deposited data

Results flagged for a closer look

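PTGES3, the HSP90 co-chaperone p23, was the single chaperone among the 51 kept whose counting intervals lay on opposite sides of 1 in the knockdowns: the count ratio to control was 1.05 (1.013 to 1.08) with IRF3 siRNA and 0.820 (0.793 to 0.849) with YAP siRNA. Between the knockdowns the ratio was 1.28. The difference was not tested, since each group has 1 library and both ratios share the control. Copies of PTGES3 elsewhere in the genome, listed under its name with a P, had 551, 575 and 555 counts in the control, IRF3 siRNA and YAP siRNA libraries, beside 7253, 8126 and 6134 for the gene itself.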

How the results depend on the processing

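With no replicates, results were recomputed under other settings only, and no paired analysis was possible because each group has 1 library. Median chaperone ratios to control moved most with TMM scaling, from 0.01 to 0.11 with IRF3 siRNA and from 0.06 to 0.16 with YAP siRNA. The median of all genes moved by 0.09 and 0.08 there. Shifts of the chaperone median stayed within the counting error of a single typical member (0.10 on the log2 scale) under every setting run. That is a wide measure for a median of 51 genes. Counts of called chaperones are small, so they moved more easily. Past 2-fold, 0 genes became 1 with no filter in each knockdown (HSPA2), 1 with CPM of the column total with IRF3 siRNA (HSPH1), and 1 with IRF3 siRNA and 2 with YAP siRNA by merged-exon FPKM, a setting chosen after seeing the data (HSPA2 in both, HSPA1A with YAP siRNA). With IRF3 siRNA the 2 genes lower past 1.5-fold became 1 with the 5 FPKM filter, 1 with centring on the median gene and 0 with the trend removed, but 3 with a pseudocount of 0.1, 3 with no filter, 3 with CPM and 3 by merged-exon FPKM. With YAP siRNA, 0 lower became 3 with a pseudocount of 0.1, 3 with CPM, 2 with no filter and 3 by merged-exon FPKM, and the 1 higher became 0 with overlapping genes summed and 0 with the trend removed. In the direct comparison, 0 higher became 1 by merged-exon FPKM (HSPA1A). The causes were not tested, beyond the genes that each filter adds or drops. No chaperone past 1.5-fold changed sign under any setting run. Of those under it HSPB1, DNAJB6, DNAJC7, BAG2, BAG6, CDC37 and CCT6A did in both knockdowns with the trend removed. HSPE1 and DNAJB1 did so with overlapping genes summed, and BAG2 and CCT6A with TMM scaling. Summing adds more counts to HSPE1 and DNAJB1 than they hold. In the control these were 7155 of HSPD1 beside 1882, and 3586 of TECR beside 2526. The change of sign there thus says little about their own reads. Further genes changed sign in 1 knockdown. Low counts limit HSPA1A, HSPA2, DNAJA4 and DNAJC2.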

Other observations

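For HSPD1 and HSPE1, whose mature transcripts have many processed copies in the genome, 15 copies of HSPD1 held 177, 178 and 171 counts and 26 copies of HSPE1 held 58, 65 and 53 counts in the control, IRF3 siRNA and YAP siRNA libraries. The genes themselves held 7155, 6733 and 6274 counts for HSPD1 and 1882, 2821 and 2522 for HSPE1. The treatment of reads with multiple hits was not given in the sources used here. For HSP90AA1, 4 copies held 184, 154 and 170 counts.

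Exon overlap was common in this gene set: 24 of the 55 chaperones share exon bases with another counted gene. BAG2 shares 42.7% of its merged exon bases with RAB23, and CCT5 shares 30.1% with a gene that had at most 3 counts.

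Rank by level depended on the gene length used. In the control library 8 of 55 chaperones moved by more than 5 places between deposited FPKM and merged-exon level. HSPA9 went from rank 16 to rank 25, and PFDN5 from 22 to 15. For HSPA9 the length implied by the deposited FPKM was 7.44 kb, shorter than its merged exon length of 8.25 kb in GENCODE release 29. The annotation behind the deposited lengths was not given, so neither level of HSPA9 can be preferred.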
